A study of Mus musculus with 6 samples.

Results

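The NKR-P1 receptors and their Clec2 ligands were examined in messenger RNA of mouse splenic natural killer (NK) cells with and without METTL3, the enzyme subunit that writes the m6A mark on RNA. The 6 genes were taken by symbol, Klrb1a, Klrb1b, Klrb1c and Klrb1f for the receptors and Clec2d and Clec2i for the ligands, and all 6 were among the 14490 genes listed. NK cells came from spleens of C57BL/6 mice of 2 genotypes, with 3 samples each. WT animals were Mettl3fl/fl, carrying the floxed gene and no Cre, and cKO animals were Ncr1Cre-Mettl3fl/fl. Floxed Mettl3 was therefore common to both genotypes, and Cre was present in cKO alone. Cre was driven from Ncr1, the gene for NKp46, and deletion is therefore limited to cells that have switched this gene on. Mice of the study were 6 to 10 weeks old and the labels name no treatment. Cells for these libraries were purified by fluorescence-activated sorting, described without its gate. The study's general purification used an antibody to NKp46, the product of Ncr1, on magnetic beads, and its flow cytometry recognised NK cells by NK1.1, the product of Klrb1c, and the absence of CD3. Levels of Ncr1 and Klrb1c may therefore belong to genes that were used to pick the cells. No label says that the 3 samples of a genotype came from separate mice, and p-values then measure only the spread between these samples.

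NKR-P1 proteins are C-type lectin-like receptors on NK cells, and the Clec2 proteins they bind, also called Clr, are encoded between the receptor genes themselves in the NK gene complex. Klrb1c encodes NK1.1, an activating receptor that signals through the FcRγ adaptor. Klrb1a and Klrb1f encode NKR-P1A and NKR-P1F, which are also counted as activating, and NKR-P1F binds Clr-g, the product of Clec2i. Klrb1b encodes the inhibitory receptor that binds Clr-b, the product of Clec2d, and recruits the phosphatase SHP-1. Loss of Clr-b from a cell is a form of missing self that NK cells recognise.

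The values are normalized counts, the reads on a gene divided by a size factor of the sample. Genotypes were compared with limma on log2(value + 1) over all listed genes, with Benjamini-Hochberg adjustment and a threshold of 0.05. A gene is called below when its adjusted p was under that threshold. Reads on listed genes ranged from 55965515 to 71464042 per sample. Mettl3 itself was at 1303, 1258 and 1192 normalized counts in WT and at 297, 299 and 405 in cKO, a log2 fold change of -1.92 ± 0.0986 (SE, limma adjusted p = 2.32e-14). Among markers of the labelled cell type, 10 of 11 NK gene symbols were listed (2 higher, 6 lower), with Cd244 found and Cd244a not. The summed level of those listed was 925149 to 957509 in WT and 885265 to 926094 in cKO. Markers of T and NKT cells summed to 15812 to 17237 in WT and 11621 to 12252 in cKO (9 of 10 listed, 2 lower and 0 higher). Those of B cells summed to 9449 to 10372 and 11052 to 11684 (10 of 10 listed, 9 higher and 0 lower). The median log2 fold change was -0.08 over the T and NKT markers and 0.61 over the B-cell markers. Myeloid and dendritic markers summed to 17250 to 17689 in WT and 15471 to 16229 in cKO (9 of 14 listed, 4 higher and 3 lower), with S100a8, S100a9, Siglech, Flt3 and Clec9a not in the table. ILC1 markers summed to 2191 to 2361 in WT and 2171 to 2373 in cKO, with none of 8 called. Of 12 markers of early NK stages 5 were higher and 2 lower, and their summed level was 160089 to 168655 in WT and 173576 to 182011 in cKO. Of 7 markers of late NK stages 3 were higher and 1 lower, with sums of 98552 to 101713 in WT and 100833 to 103813 in cKO. The part of these cells and stages in the results on receptors and ligands was not tested. In bulk RNA, fewer cells of a type and less RNA per cell cannot be told apart.

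Of the 6 genes, 5 were lower in cKO at the threshold and none was higher. The median log2 fold change over the 6 was -0.30, against 0.0014 over all genes. Of all genes tested 36.6% were called, 18.8% lower and 17.8% higher, and 4300 of the 5307 called genes differed by less than 0.5 on the log2 scale. For 4 of the 6 genes every cKO sample lay below every WT sample, which held for 23.0% of all genes. These shares cover genes of every level, while the 6 ranked from 306 to 4157 of 14490 by mean normalized count. Shares among genes of like level were not taken. The study's rule of an unadjusted p under 0.05 with a log2 fold change beyond 1 in size took in 1.75% of all genes and 0 of these 6. Clec2d, Clec2i, Klrb1b and Klrb1c thus fell by less than the size the rule asks for, Klrb1f passed the threshold with a smaller difference, and Klrb1a was not called.

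**Figure D1:**
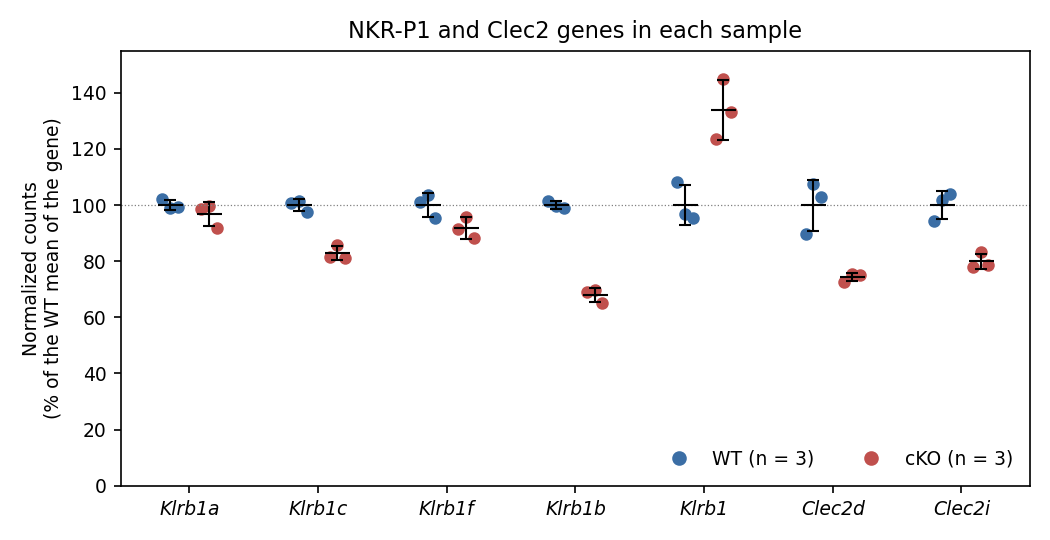
Normalized counts of each receptor and ligand gene in each sample, as a percentage of the gene's WT mean. Points are samples (3 WT, 3 cKO), horizontal bars are means and whiskers are SD. The cKO samples of Klrb1c, Klrb1b, Clec2d and Clec2i all lie below the WT samples, those of Klrb1a and Klrb1f overlap with them, and those of Klrb1, a further family gene, lie above.

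The activating receptor NK1.1 is the marker by which mouse NK cells are usually recognised. Its gene Klrb1c was at 37771, 38024 and 36579 normalized counts in WT and at 30576, 32113 and 30385 in cKO. All cKO samples were below all WT samples, and the genotypes were further apart than the samples within either. The mean fell from 37458 ± 771 to 31025 ± 947 (SD, n = 3 per genotype), a change of -17.2% and a log2 fold change of -0.27 ± 0.0307 (SE), with a limma adjusted p of 8.07e-08. Over 14 alternative settings the log2 fold change of Klrb1c ran from -0.30 to -0.22.

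Klrb1a, the gene of NKR-P1A, was at 4734, 4584 and 4602 normalized counts in WT and at 4577, 4623 and 4263 in cKO. One cKO sample was the lowest of the 6, and the others fell among or beside the WT samples. The log2 fold change of Klrb1a was -0.049 ± 0.0406 (SE, 95% interval -0.13 to 0.034), with a limma adjusted p of 0.377. Its interval reaches neither of the values fitted for Klrb1b and Klrb1c. With every sample scaled to the same total over listed genes, the sign of Klrb1a turned (0.00074).

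Klrb1f, the gene of NKR-P1F, was at 4653, 4775 and 4401 normalized counts in WT and at 4224, 4415 and 4065 in cKO. The genotypes overlapped, since 1 cKO sample lay just above the lowest WT sample. The mean was 4610 ± 191 in WT and 4234 ± 175 in cKO (SD, n = 3 per genotype), a log2 fold change of -0.12 ± 0.0424 (SE) with a limma adjusted p of 0.0242. This call was lost in 7 of 14 alternatives, among them equal totals (-0.073, limma adjusted p = 0.162) and a correction for GC content and length (-0.093, 0.103). It was also lost without WT 1 (-0.12, adjusted p = 0.0682), without WT 2 (-0.097, 0.112), without cKO 1 (-0.12, 0.0701) and without cKO 3 (-0.094, 0.133), all by limma. The log2 fold change of Klrb1f stayed negative in all 14, from -0.16 to -0.073.

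The inhibitory receptor gene Klrb1b showed the largest difference of the 6. It was at 26656, 26178 and 25940 normalized counts in WT and at 18161, 18266 and 17130 in cKO. The range within each genotype was small, 0.04 on the log2 scale in WT and 0.09 in cKO, and the genotypes lay well apart. The mean fell from 26258 ± 365 to 17852 ± 628 (SD, n = 3 per genotype), a change of -32.0%. Its log2 fold change was -0.56 ± 0.0317 (SE, 95% interval -0.62 to -0.49), with a limma adjusted p of 1.75e-13 and a range of -0.57 to -0.51 over the alternatives. Of all genes tested, 344 (2.37%) were called lower by at least as much.

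Klrb1, the gene of the inhibitory receptor NKR-P1G, is not one of the 6 but is the remaining receptor gene of the family in the table. It was at 673, 602 and 593 normalized counts in WT and at 770, 902 and 829 in cKO. All cKO samples were above all WT samples, the opposite of Klrb1b. The log2 fold change of Klrb1 was 0.42 ± 0.082 (SE, 95% interval 0.25 to 0.59), with a limma adjusted p of 0.000194 and a range of 0.36 to 0.48 over the alternatives. Counting error was larger here than for the 6 genes, up to 4.45% of a value against at most 2.02%, since 506 to 993 reads lay behind each Klrb1 value and 2451 to 38035 behind the values of the 6.

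Clec2d encodes Clr-b, the ligand of the inhibitory receptor, which is itself displayed on most blood cells including NK cells. It was at 5380, 6431 and 6160 normalized counts in WT and at 4347, 4514 and 4500 in cKO. One WT sample stood below the others and still above every cKO sample, and the cKO samples lay close together. The mean fell from 5991 ± 546 to 4453 ± 92.8 (SD, n = 3 per genotype), a change of -25.5%. The log2 fold change of Clec2d was -0.42 ± 0.0479 (SE, 95% interval -0.52 to -0.33), with a limma adjusted p of 8.17e-08.

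Clec2i encodes Clr-g, the ligand of NKR-P1F. It was at 3012, 3254 and 3322 normalized counts in WT and at 2492, 2656 and 2512 in cKO. No cKO sample reached the lowest WT sample. The mean fell from 3196 ± 163 to 2553 ± 89.6 (SD, n = 3 per genotype), a change of -20.1% and a log2 fold change of -0.32 ± 0.0473 (SE, 95% interval -0.42 to -0.23, limma adjusted p = 4.75e-06). Over the alternatives the log2 fold change ran from -0.50 to -0.37 for Clec2d and from -0.37 to -0.27 for Clec2i, and both calls held in every one of the 14. In the exact two-sided permutation test over the 20 assignments of 6 samples, Klrb1b, Klrb1c, Clec2d and Clec2i each gave p = 0.1, the smallest this design allows.

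**Figure D2:**
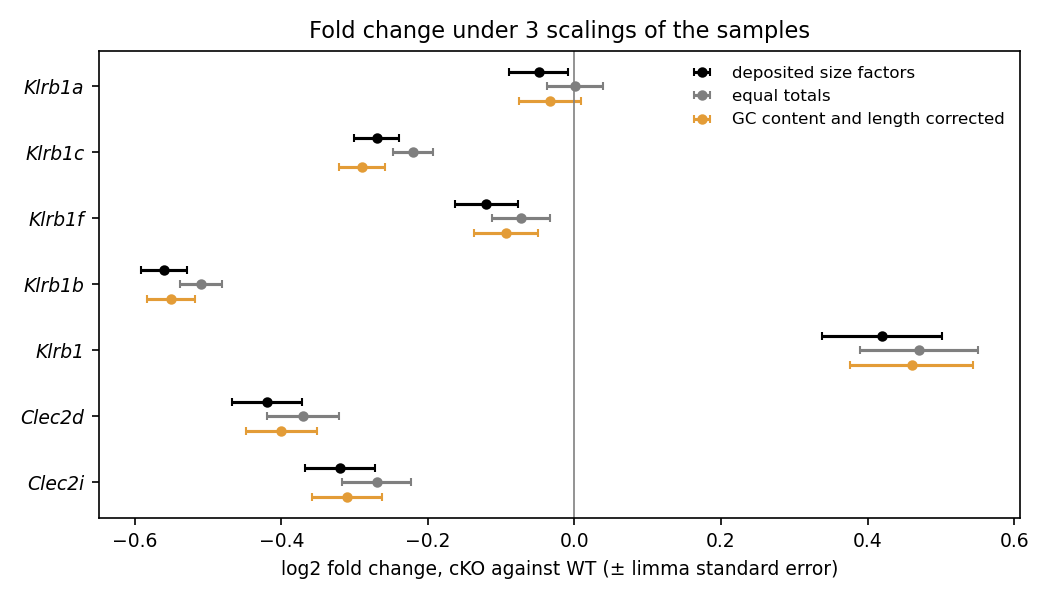
Log2 fold change of cKO against WT for each receptor and ligand gene under the deposited size factors, equal totals, and a correction for GC content and length. Points are limma estimates and whiskers are standard errors. Klrb1b, Klrb1c, Clec2d and Clec2i stay below 0 and Klrb1 above 0 in all 3 scalings, Klrb1f lies nearer to 0 in the other two than under the deposited size factors, and Klrb1a crosses 0 under equal totals.

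Scaling mattered for the small differences. Under equal totals the median over the whole table moved to 0.051 on the log2 scale, and the split of calls changed from 2576 higher and 2731 lower (48.5% higher) to 3487 higher and 2016 lower (63.4% higher). Klrb1b, Klrb1c, Clec2d and Clec2i were called lower on either scale.

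Levels were compared between genes per kilobase of exon, since longer transcripts collect more reads. Klrb1c had the highest level in WT, with 12650 ± 260 normalized counts per kilobase (SD, n = 3), followed by Klrb1b with 11786 ± 164. The WT samples of Klrb1c and Klrb1b did not overlap in these units, 12354 to 12842 against 11643 to 11964. Clec2d came next at 4939 ± 450, and Klrb1a at 2909 ± 51.3. Klrb1f was at 2277 ± 94.2, Clec2i at 1028 ± 52.4 and Klrb1 at 444 ± 31.2 per kilobase. Neighbours in this order were apart by more than the spread of the WT samples, and the genes of the inhibitory receptor and of NK1.1 stood well above the rest of the family. The order of Klrb1c and Klrb1b, and the shares below, also depend on how reads on bases shared with the gene model Gm44511 were counted. These are 26.9% of exonic bases in Klrb1b and 13.9% in Klrb1c, and the counting is not given. In cKO the order was the same, with Klrb1c at 10478 ± 320, Klrb1b at 8013 ± 282, Clec2d at 3671 ± 76.5, Klrb1a at 2814 ± 123, Klrb1f at 2091 ± 86.5, Clec2i at 821 ± 28.8 and Klrb1 at 594 ± 47.4 normalized counts per kilobase. The gap between Klrb1c and Klrb1b was wider in cKO than in WT. With the longest transcript as the length, the order in WT was the same, but in cKO the lowest genes changed places, with Klrb1 at 958 ± 76.4 and Clec2i at 924 ± 32.4, and their cKO samples overlapped.

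**Figure D3:**
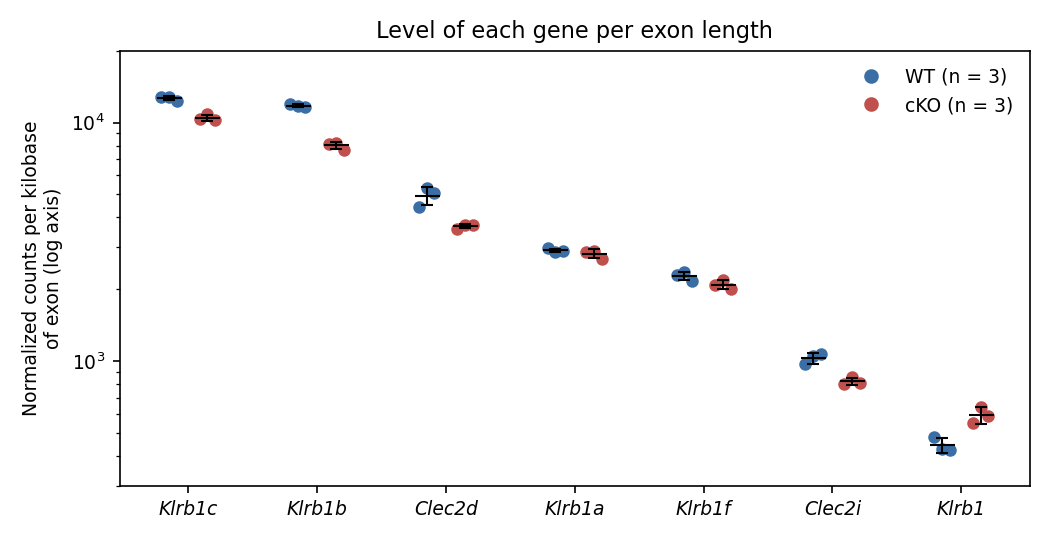
Normalized counts per kilobase of exon for each receptor and ligand gene, on a log axis. Points are samples (3 WT, 3 cKO), bars are means and whiskers are SD. Klrb1c (WT mean 12650) and Klrb1b (11786) lie highest, then Clec2d, Klrb1a, Klrb1f, Clec2i and Klrb1 (444), in the same order in both genotypes with this length.

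As a share of the summed level per kilobase of the 5 receptor genes, Klrb1b took 39.2% ± 0.334 in WT and 33.4% ± 0.509 in cKO (SD, n = 3). Klrb1c took 42.1% ± 0.324 and 43.7% ± 0.574, and Klrb1a took 9.68% ± 0.155 and 11.7% ± 0.229. For Klrb1f the shares were 7.57% ± 0.212 and 8.71% ± 0.0807, and for Klrb1 1.48% ± 0.0862 and 2.47% ± 0.165. Within the family the inhibitory receptor Klrb1b thus lost share and each of the others took a larger one, with shares tied to each other because they sum to the whole.

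Receptors and their known ligands were set side by side as ratios of normalized counts within a sample, which are comparable between samples but not between gene pairs. The ratio of Klrb1b to its ligand gene Clec2d was 4.95, 4.07 and 4.21 in WT and 4.18, 4.05 and 3.81 in cKO. The genotypes overlapped, with a mean difference of -0.13 on the log2 scale. Both genes of this pair were lower in cKO. The ratio of Klrb1f to its ligand gene Clec2i was 1.55, 1.47 and 1.32 in WT and 1.69, 1.66 and 1.62 in cKO. Here all cKO samples were above all WT samples, with a mean difference of 0.2 on the log2 scale. Both genes of this pair had lower means in cKO as well. The ratio of Klrb1b to Klrb1c was 0.706, 0.688 and 0.709 in WT and 0.594, 0.569 and 0.564 in cKO, without overlap and with a mean difference of -0.29 on the log2 scale. No test was made on these ratios.

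Start regions of 4 receptor genes are shown because they hold the longest runs of sequence shared within the family, while the genes that share them differed unequally between genotypes. Each window covers 250 bases before and 50 after the annotated start, from RefSeq on GRCm38.p6, which had entries for all 6 genes. Capitals mark the longest run of bases that a window shares with the other of its pair. The first pair is Klrb1a (chr6:128622885-128623184, minus strand), which was not called, and Klrb1c (chr6:128788592-128788891, minus strand), which fell. In the GENCODE annotation Klrb1a and Klrb1c start further upstream, at 128623533 and 128789215, and there the windows of this pair lie within the gene bodies. The second pair is Klrb1b (chr6:128826266-128826565, minus strand), with the largest fall, and Klrb1f (chr6:129045651-129045950, plus strand), with the small one.
Klrb1a: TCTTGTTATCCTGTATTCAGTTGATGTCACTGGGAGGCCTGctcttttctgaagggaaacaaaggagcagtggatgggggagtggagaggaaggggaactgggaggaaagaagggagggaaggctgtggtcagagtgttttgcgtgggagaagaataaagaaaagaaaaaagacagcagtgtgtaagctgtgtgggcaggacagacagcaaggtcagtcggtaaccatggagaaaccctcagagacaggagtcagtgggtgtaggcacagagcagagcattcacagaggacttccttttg
Klrb1c: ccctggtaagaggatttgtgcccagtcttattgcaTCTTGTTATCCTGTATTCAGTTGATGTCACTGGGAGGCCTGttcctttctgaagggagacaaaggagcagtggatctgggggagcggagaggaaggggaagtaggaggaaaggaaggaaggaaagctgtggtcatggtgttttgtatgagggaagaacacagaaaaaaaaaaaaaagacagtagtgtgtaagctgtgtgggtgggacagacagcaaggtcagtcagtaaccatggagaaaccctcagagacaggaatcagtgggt
Klrb1b: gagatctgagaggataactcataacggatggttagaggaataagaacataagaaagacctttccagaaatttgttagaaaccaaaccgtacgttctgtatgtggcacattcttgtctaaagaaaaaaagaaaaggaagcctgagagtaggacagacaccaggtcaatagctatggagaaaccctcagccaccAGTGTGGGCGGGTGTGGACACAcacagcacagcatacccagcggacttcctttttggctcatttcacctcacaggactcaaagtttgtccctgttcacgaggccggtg
Klrb1f: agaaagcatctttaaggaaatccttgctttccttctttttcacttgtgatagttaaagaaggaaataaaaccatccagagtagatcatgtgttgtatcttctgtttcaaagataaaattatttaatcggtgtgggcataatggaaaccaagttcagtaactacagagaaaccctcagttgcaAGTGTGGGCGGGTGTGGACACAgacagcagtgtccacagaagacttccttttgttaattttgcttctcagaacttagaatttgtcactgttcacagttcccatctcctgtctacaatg

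The Klrb1a and Klrb1c windows were identical at 69.4% of aligned positions and shared a run of 41 bases. Klrb1b and Klrb1f were identical at 55.0% and shared a run of 22 bases. They are no exclusive pair, since the window of Klrb1 was identical to that of Klrb1b at 57.5% and to that of Klrb1f at 55.9%, with a longest run of 10 and 9 bases. Between either of the first pair and either of the second, identity was 42.0% to 44.8%. Beside these windows the log2 fold changes were -0.049 for Klrb1a and -0.27 for Klrb1c, and -0.56 for Klrb1b, -0.12 for Klrb1f and 0.42 for Klrb1.

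Letters of binding motifs were looked for on both strands of these windows and of 27025 promoters of the same length. The KLF box CCACACCC occurred once in Klrb1b and once in Klrb1f, on the opposite strand within their shared run, and in 3.57% of all promoters. The RUNX core TGTGGT occurred once in Klrb1a and once in Klrb1c, and in 16.9% of all promoters. The ETS core AGGAAG was found in Klrb1a (2), Klrb1c (2), Klrb1b (2) and Klrb1f (1), in neither ligand gene, and in 35.1% of all promoters. Matches that overlap each other were counted once, which applies in Klrb1c. The T-box letters GGTGTGA, present in 3.96% of all promoters, were in none of the windows. RUNX and KLF letters can run into each other, and no window of the 6 genes held both. A match describes letters only, and no binding was measured.

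All 6 genes lie on chromosome 6 of GRCm38 within 577 kb, at 128609227 to 129186534. In the GENCODE annotation Klrb1a (128609227 to 128623533), Klrb1c (128778485 to 128789215) and Klrb1b (128813706 to 128826331) are on the minus strand. Clec2i (128887588 to 128898167), Klrb1f (129045901 to 129057464) and Clec2d (129180615 to 129186534) are on the plus strand, and a ligand gene thus lies on either side of Klrb1f. Of 36 annotated genes in the interval 12 were in the table, of which 7 were called lower and 1, Klrb1, higher. The 7 include 5 of the 6 receptor and ligand genes, and of all genes tested 18.8% were called lower. Besides the receptors and ligands, the non-coding RNA Gm44066 fell (log2 fold change -0.18, limma adjusted p = 0.0359), as did the pseudogene BC064078 (-0.26, 0.0294). BC035044 (0.039), Gm15987 (-0.086) and Gm44000 (0.16) were not called. Neighbouring genes differed in sign, as Klrb1 lies between Klrb1a and Klrb1c.

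**Figure D4:**
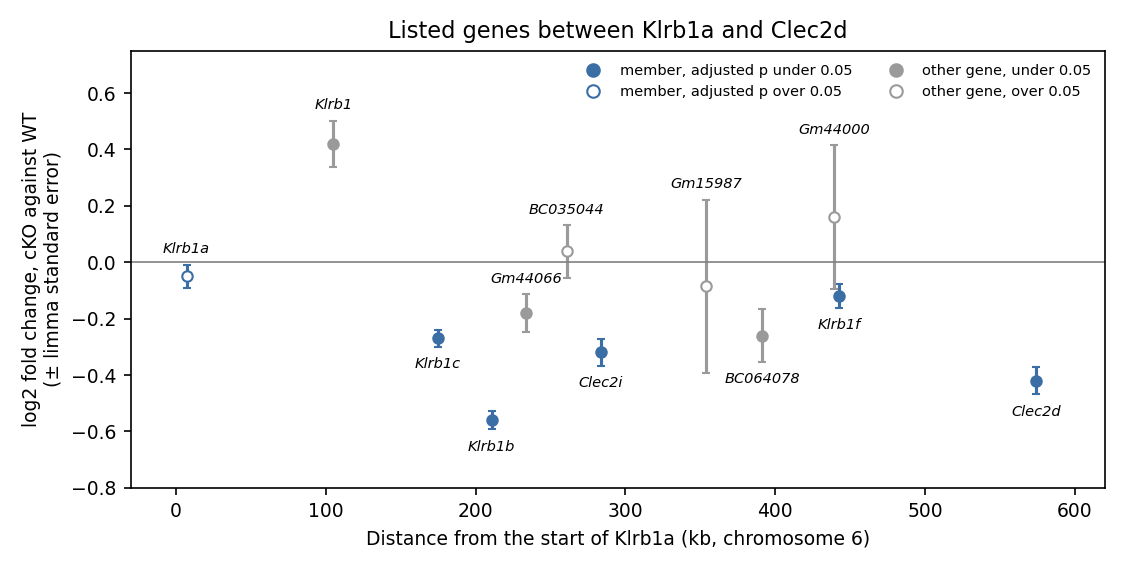
Log2 fold change of cKO against WT for the 12 listed genes between Klrb1a and Clec2d, by the distance of the gene's middle from the start of Klrb1a in kilobases. Blue points are the 6 receptor and ligand genes (members), grey points other genes, filled points have a limma adjusted p under 0.05 and whiskers are standard errors. Klrb1 is the called gene above 0, and Klrb1b is lowest.

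Gene copies of this family are alike, and reads may be shared. Gm44511, a gene model on the same strand that was not in the table, overlaps 599 of 2228 exonic bases of Klrb1b (26.9%) and 413 of 2961 of Klrb1c (13.9%). Of the 100-base stretches of the longest transcript, 7.8% were shared with Gm44511 for Klrb1b and 12.6% with Gm44511 or Klrb1a for Klrb1c. Stretches shared with another gene were 0.766% for Klrb1a (with Klrb1c) and 0.15% for Clec2i (with Clec2h), and 0 for Klrb1f, Clec2d and Klrb1. Levels of Klrb1b and Klrb1c are therefore less certain than the others, since how such reads were counted is not given in the sources used here. Use of strand in counting is not given either. Of the 6 genes, none shares an exonic base with an annotated gene on the opposite strand, although the antisense gene Gm44000 lies within the body of Klrb1f.

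METTL3 methylates adenosines within short sequence contexts of which GGACT is the best known. In the longest transcript GGACT occurred 6 times in Klrb1a, 7 in Klrb1b, 7 in Klrb1c and 6 in Klrb1f. These are 4.71, 3.14, 2.67 and 3.53 occurrences per kilobase, against a median of 1.02 over 13953 listed genes, and at or above the density of 96.2% to 99.7% of them. The ligand genes were unlike the receptors, with 0 occurrences in Clec2d and 2 in Clec2i (0.724 per kilobase), and Klrb1 had 1 (1.15 per kilobase). Klrb1a, with the highest density of the 6, was not called, while Klrb1b and Klrb1c fell and Klrb1f fell by less. Both ligand genes, Clec2d with 0 and Clec2i, fell as well. Whether these occurrences bear on the differences was not tested. Methylation itself was not measured in these samples.

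Signals of the receptors pass through adaptors, kinases and phosphatases that serve many NK receptors. Of 18 such genes all were in the table, of which 10 were called lower and 2 higher, with a median log2 fold change of -0.13. Over all genes tested, 18.8% were called lower and 17.8% higher. With equal totals the list had 7 lower and 3 higher. Fcer1g, the FcRγ adaptor of NK1.1, was at 36862, 37062 and 35408 normalized counts in WT and at 29781, 31178 and 29871 in cKO. The genotypes of Fcer1g did not overlap, and its log2 fold change of -0.27 ± 0.0307 (SE, limma adjusted p = 1.03e-07) was the same to 2 decimals as that of Klrb1c. Tyrobp, the DAP12 adaptor of other activating NK receptors, fell by 0.32 on the log2 scale (adjusted p = 2.08e-08), and Hcst, the DAP10 adaptor of NKG2D, by 0.15 (0.00683). Cd247, the CD3ζ chain that pairs with FcRγ, went the other way and rose by 0.21 (2.83e-05).

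Among the kinases behind the adaptors, Zap70 fell (-0.16, adjusted p = 0.000204), while Syk (0.011), Lck (0.014) and Fyn (0.059) were not called. The scaffold genes Lat (-0.27, 7.67e-06), Lcp2 (-0.18, 0.000115) and Lat2 (-0.12, 0.015) fell. Further along the pathway the exchange factor Vav3 (-0.42, 5.27e-06) and the phospholipase Plcg2 (-0.25, 1.07e-06) fell, whereas Vav1 (-0.05) and Plcg1 (-0.31, adjusted p = 0.0565) were not called. Among phosphatases Ptpn6, which encodes the SHP-1 recruited by NKR-P1B, was at 7971 ± 218 normalized counts in WT and 7534 ± 129 in cKO (SD, n = 3 per genotype, log2 fold change -0.081, limma adjusted p = 0.0723). Ptpn11, which encodes SHP-2, fell (-0.12, 0.0122) and Inpp5d, which encodes SHIP-1, rose (0.14, 0.00132). The calls of Hcst, Lat2 and Ptpn11 were lost in at least 1 alternative, with adjusted p up to 0.0622, 0.137 and 0.145, and those of the other 9 called genes held in all. Conversely, Fyn, Ptpn6, Plcg1 and Vav1 were called in at least 1 alternative, with limma adjusted p down to 0.00176, 0.0157, 0.0158 and 0.0394. Syk and Lck were called in none.

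**Figure D5:**
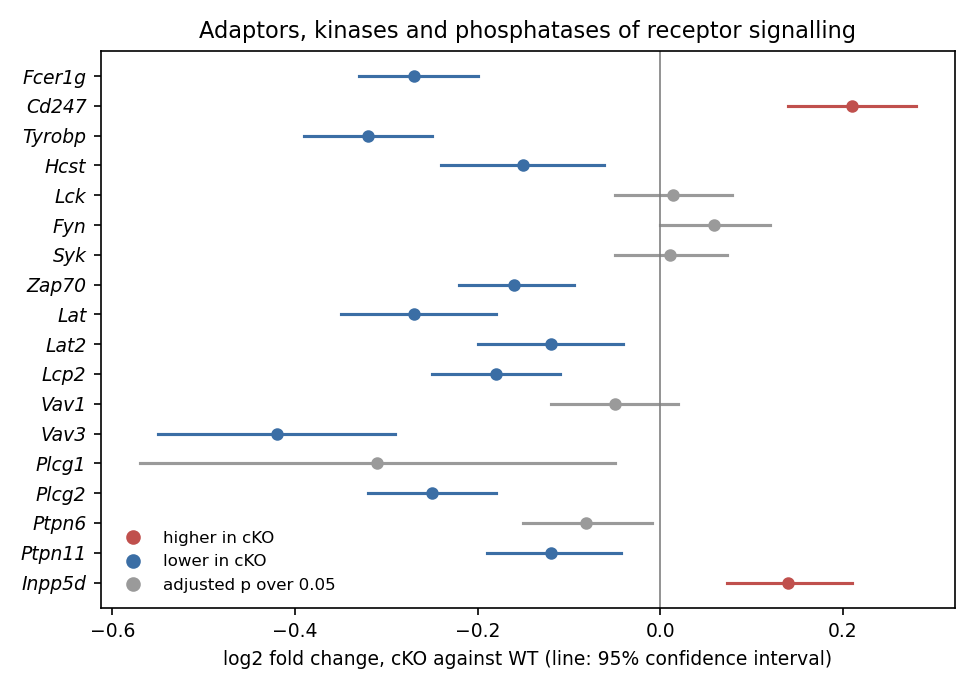
Log2 fold change of cKO against WT for 18 adaptor, kinase, scaffold and phosphatase genes of receptor signalling. Points are limma estimates, lines are 95% confidence intervals, and colour marks an adjusted p under 0.05 in either direction. With the deposited size factors 10 called genes lie below 0 and 2, Cd247 and Inpp5d, above, and 6 were not called.

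Of 12 symbols looked up for other lectin-like neighbours or relatives of the family, 3 were in the table. A symbol not found can be another name of a listed gene. Klrb1 is described above. Klri1 and Klri2 encode receptors that pair with KLRE1, and both fell. Klri1 was at 742 ± 51.4 normalized counts in WT and 509 ± 77.9 in cKO (log2 fold change -0.55, limma adjusted p = 6.04e-05), and Klri2 at 60501 ± 1220 and 39433 ± 1050 (-0.62, 8.19e-15, SD, n = 3 per genotype). Ncr1, from whose locus Cre is expressed, was at 22394 ± 286 in WT and 16918 ± 230 in cKO, a change of -24.5% (log2 fold change -0.40, limma adjusted p = 3.56e-11).

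Genes whose levels followed those of the receptors and ligands most closely were named by Pearson's r of log2 values over the 6 samples, among 11753 genes with a mean of at least 1 CPM (counts scaled to a common total). Genes of a sample share its library, depth and genotype. A high r can therefore follow from the difference between WT and cKO alone, and these values are descriptions. Klrb1b was closest to Sumo2 (r = 0.9999) and Mmd (0.9995), and Klrb1c was close to Copz1 (0.999). Klrb1f was closest to Gzma (0.9965) and Klra1 (0.9947), the genes of granzyme A and of the Ly49A receptor. Clec2d was closest to Extl2 (0.9981) and Rab2a (0.9971), Clec2i to Spryd7 (0.9989) and Ndufs5 (0.9973), and Klrb1a to Nedd4 (0.9886) and Pfdn6 (0.9769). Among the receptors and ligands themselves, Klrb1b and Klrb1c (0.99) and the ligand genes Clec2d and Clec2i (0.98) were the closest pairs, and Klrb1a stood furthest from the others, with r of 0.36 to 0.74.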

How the data were processed

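Messenger RNA of sorted splenic NK cells was sequenced in 3 WT and 3 cKO samples. Per the labels and methods the authors made poly(A) libraries, used HISAT2 for alignment to GRCm38, featureCounts for gene-level counting and DESeq2 for the comparison of genotypes. The submitters' processing notes give versions 2.0.5, 1.5.0-p3 and 1.16.1, and the published methods name later versions of HISAT2 and DESeq2. Per sample the deposited value is a signal, a gene's counts over the size factor that the authors obtained for that library. The authors' own fold changes and p-values stand beside them and were not used. In each sample 100% of values were whole multiples of 1 step within 0.1 read, from which reads on listed genes were derived. Depth beyond listed genes was not used here, and intervals of reads cover counting error only.

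Genotypes came from the sample labels. A filter asking for 1 or more in 3 or more samples took away no gene, and limma 3.58.1 (R 4.3.3, with a variance trend) was fitted two-sided to log2(value + 1), so fold changes are on that scale. A spline with 5 degrees of freedom was used to correct for GC content and length, known for 14105 genes. Positions and transcripts came from GENCODE, which held 97.3% of the names. The fit was tested on simulated data.

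The genes, lists and tests were chosen with earlier results of these data known. Named genes were the 6 receptor and ligand genes, listed genes of the pathway and family lists, Mettl3, genes between the outermost of the 6, and the 2 most correlated genes of each, of which 1 is not reported here. Ncr1 and the marker sums were added as checks. Alternatives were another pseudocount (0.1), filter, scaling, test or length, a replicate block, a 1.5-fold limit, and each sample left out.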

Additional observations from a re-analysis of the deposited data

How the results depend on the processing

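The 6 genes gave 5 calls with the main settings and 4 to 5 under every alternative tried, and all calls were of lower levels. Klrb1b, Klrb1c, Clec2d, Clec2i and Klrb1 kept their direction and their call in all 14 alternatives, and Klrb1f kept its direction in all and its call in 7. Of the 14, the fit without a filter repeated the main fit, since the filter took away no gene. Klrb1a turned from -0.049 to 0.00074 (limma adjusted p = 0.991) under equal totals. Over the 14, genes called ranged from 4417 (without cKO 1) to 5543, with 4417 to 4922 when 1 sample was left out, the signalling list from 10 to 15 calls, and Mettl3 from -2.06 to -1.84 on the log2 scale. No gene of the 6 met the rule with a 1.5-fold limit either.

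With the longest transcript in place of the union of exons, WT means per kilobase moved to 3642 for Klrb1a, 14281 for Klrb1c, 2710 for Klrb1f and 1156 for Clec2i, and stayed the same for Klrb1b and Clec2d. With the replicate number as a block, 5543 genes and 5 of the 6 were called (Klrb1f adjusted p = 0.011). Whether the numbers pair the samples is not known, and deviations from the means of 3 samples cannot decide it. Deviations of same-numbered samples correlated at -0.024, 0.116 and 0.045, and those of differently numbered samples at -0.103 to 0.062. The block result changed no call of the 6. The edgeR and DESeq2 alternatives were not run, because too few low values were listed to check the derived reads as counts, and limma-voom on the derived reads gave 5246 calls.

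With 3 samples per genotype the spread of a single gene is poorly known. The call of Klrb1f rested on every sample but WT 3 and cKO 2, and the interval of Klrb1a leaves room for a fall of up to 0.13 on the log2 scale.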
